A study of Mus musculus with 8 samples.

Results

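The G1 and S cyclins and their kinases were followed in mouse multipotent progenitors (MPPs): the kinases Cdk2, Cdk4 and Cdk6, the D cyclins Ccnd1, Ccnd2 and Ccnd3, the E cyclins Ccne1 and Ccne2, and Ccna2. The 9 genes were listed by name and found by their Ensembl identifiers among 37980 gene rows. They were compared between 4 libraries of NA MPPs, named NA1 to NA4, and 4 of WT MPPs, named WT1 to WT4, each made from 1000 cells sorted from C57BL/6 bone marrow as Lin-, CD48-, ckit+, Sca1+, CD135+ and CD150-. NA mice carried the NUP98-HOXA10hd fusion, in which part of a nucleoporin is joined to the homeodomain of HOXA10. Per the study, they were NA LSL/+; Vav-Cre mice, which express the fusion from the Rosa26 locus once Vav-Cre, active in blood cells in general and not in MPPs alone, has acted. WT mice lacked the fusion, whether they carried Vav-Cre was not given, and neither age nor sex stood in the labels. The labels do not say whether libraries came from separate mice, so p-values measure the spread between these libraries.

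Cyclins are the regulatory subunits that switch on cyclin-dependent kinases (CDKs). In G1 the D cyclins activate Cdk4 and Cdk6, which begin to phosphorylate the retinoblastoma protein and release E2F factors. Cyclin E with Cdk2 then carries the cell into S phase, and cyclin A2 takes over as the partner of Cdk2 while DNA is replicated. Blood stem and progenitor cells are known to rely strongly on Cdk6 for leaving the resting state.

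Values are normalised counts: gene counts from RSEM after the authors' division by a size factor for each library, so that 1 read was worth between 0.888 and 1.18. Estimated depth was 3876893 to 4916987 reads per library, with NA4, WT2 and WT3 the shallowest. The summed counts of the gate markers Kit, Ly6a, Flt3 and Cd34 were 7337 to 7655 in NA and 7486 to 7891 in WT libraries with 1 of the 4 called lower, those of Slamf1 and Cd48, which the gate excludes, were 25.9 to 60.2 and 52.4 to 114 with 1 of 2 called lower, and Elane, Mcpt8, Prss34, Pax5, Cd3e, Cd3g and Cd8a were at 0 in all 8. Summed markers of other cells were lower in NA MPPs for erythroid genes (42.5 to 69.6 against 161 to 303, where the 1 of 7 genes high enough to test was called lower), for B and lymphoid genes (146 to 246 against 404 to 498, 1 of 2 tested genes called lower), and for granulocyte and monocyte genes (1382 to 1695 against 1746 to 2349, 2 of 2 called lower). Those of T cells (113 to 200.4 and 183 to 302, with 1 of 2 tested genes called lower), megakaryocytes (206 to 288 and 216 to 290) and mast cells and basophils (17.9 to 26.1 and 1.14 to 19.5) overlapped. The summed counts of long-term stem cell genes were 5306 to 6102 in NA and 3517 to 3578 in WT libraries, with 2 of 6 tested genes called higher and 4 not called. The part of these cells in the results below was not tested. All 4 Y-linked genes examined were called higher in NA libraries and Xist was called lower, so genotype and the sex of the donors cannot be told apart. For 66.5% of genes with a mean of at least 50 counts over all libraries, NA4 lay within the range of the other 3 NA libraries, and for 75.4% WT4 lay within that of the other 3 WT libraries, against 37.9% to 50.5% for the remaining 6, so the fourth libraries may not be independent of the others. If they are not, n is below 4 and the p-values are too small, and results are also given without them.

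The transcripts of these genes did not move in a common direction, with the lower calls less stable than the higher ones. Cdk2, Cdk6, Ccnd2 and Ccna2 were higher in NA MPPs, Cdk4 and Ccnd3 were lower, and Ccnd1, Ccne1 and Ccne2 did not pass the test. Thus 6 of the 9 genes were called by limma at an adjusted p below 0.05, where 17.9% of all 11451 genes tested were called. The 4 higher calls stood against a background of 10.1% called higher and the 2 lower calls against 7.87% called lower. Of 19 alternative settings, each higher call was kept in 18 or 19, that of Cdk4 in 17 and that of Ccnd3 in 6. The groups did not overlap for 5 of the 9 genes, against 22.0% of tested genes. The study had examined cell cycle genes in data to which the present libraries belong, so the directions of these genes are no independent evidence. It reported a cell cycle gene set as enriched in NA MPPs, and that real-time PCR bore out selected genes of that set. Its flow cytometry of cell cycle status, however, found NA MPPs more quiescent than control. The transcripts here do not measure cell cycle status. Without the fourth libraries 4.63% of 11117 genes were called, and among the 9 genes Cdk2, Cdk6 and Ccnd2 were, all higher. Of all calls, 56.1% were higher in NA MPPs, and this share was 41.3% when libraries were scaled by their total count, a scaling that turned no direction among the 9 genes. In sorted cells, fewer cells with a transcript and less of it in each cell cannot be told apart.

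**Figure D1:**
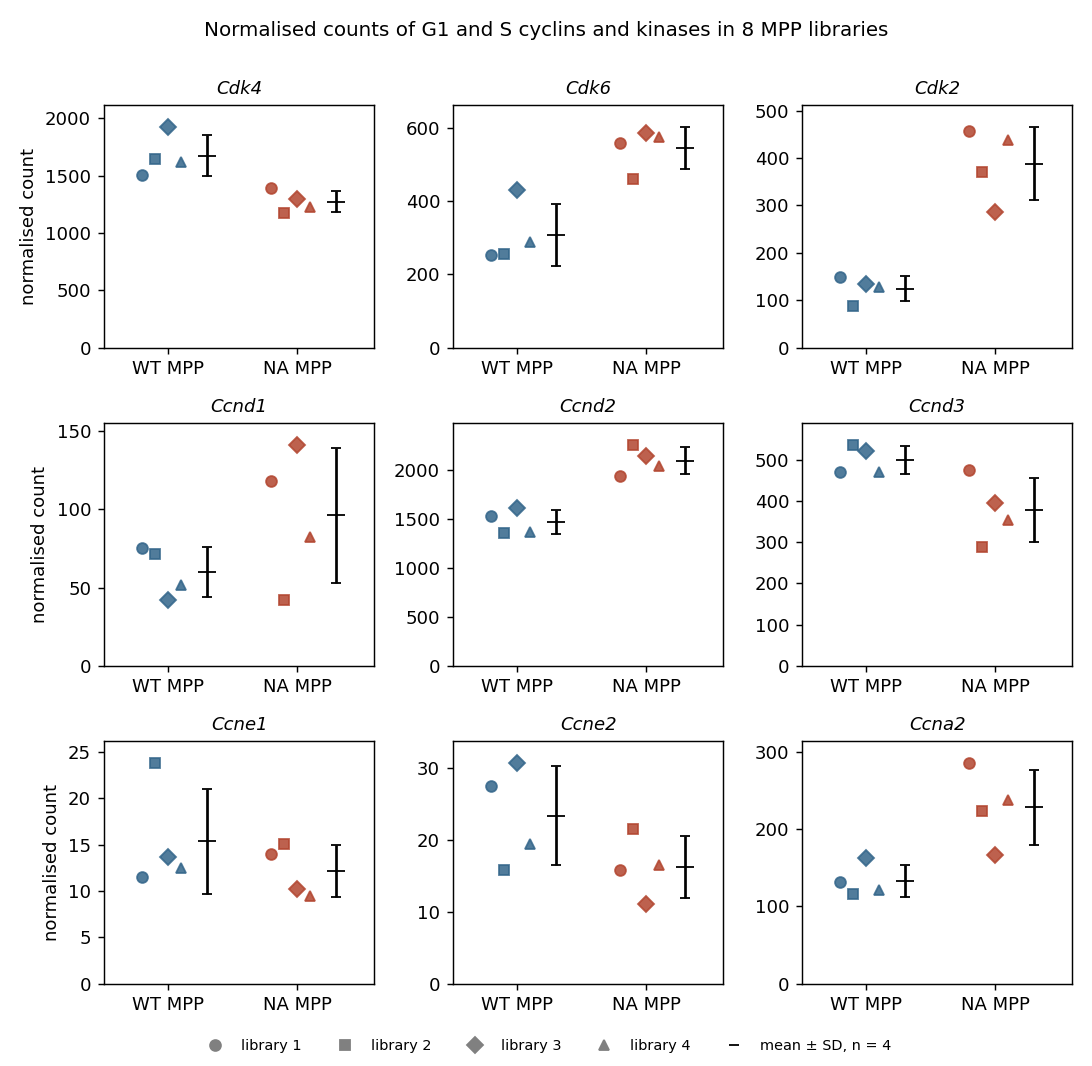
Normalised count of each gene (vertical axes, starting at 0) in the 4 WT MPP and 4 NA MPP libraries, with a symbol for each library number and bars for mean ± SD. All NA points lie above all WT points for Cdk6, Cdk2, Ccnd2 and Ccna2 and below them for Cdk4, while the groups overlap for the other 4 genes.

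**Figure D2:**
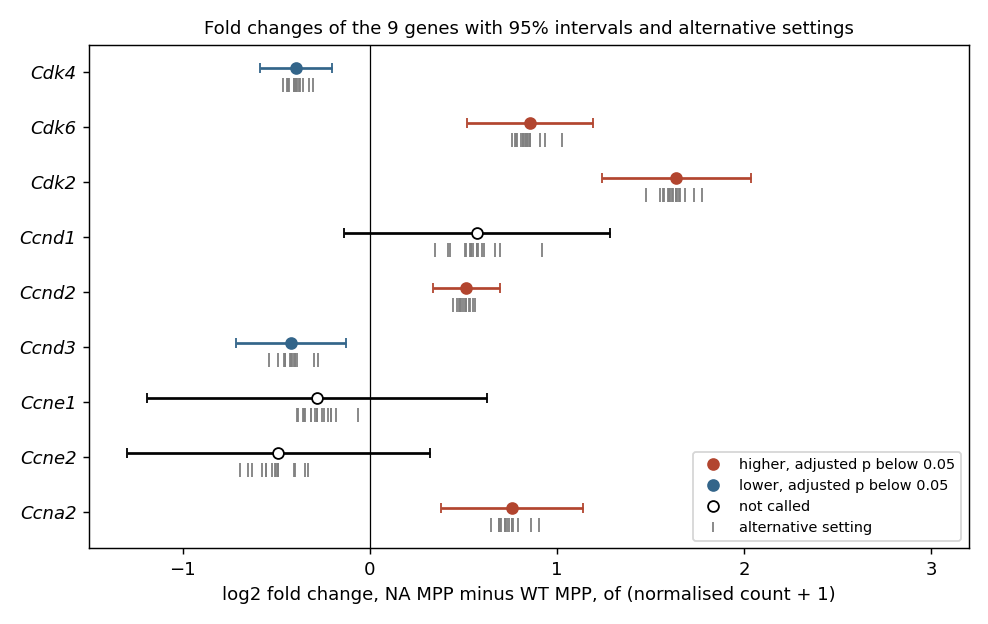
Log2 fold change of each gene, NA MPP minus WT MPP, on the log2(normalised count + 1) scale, with its 95% interval from limma and grey ticks for 19 alternative settings (18 for the E cyclins). No tick lies on the other side of 0 from its main value, and Cdk2 stands farthest from 0 at 1.64.

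Cdk4 and Cdk6 bind the same D cyclins and share most of their known substrates, and their transcripts went in opposite directions. Cdk4 (ENSMUSG00000006728) lies at chr10:127063534-127067920 on the plus strand of GRCm38. Its normalised counts were 1389, 1179, 1293 and 1227 in NA1 to NA4, and 1505, 1649, 1925 and 1624 in WT1 to WT4. Every NA library was below every WT library, with WT3 the highest of all. The means were 1272 ± 91.0 and 1676 ± 178 (± SD over 4 libraries each), 1.31-fold lower in NA MPPs. The log2 fold change was -0.39 (standard error 0.091, limma adjusted p = 0.0090). The call was lost without the fourth libraries (adjusted p = 0.0773) and when limma was run without its mean-variance trend (adjusted p = 0.0583), at about the same fold change.

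Cdk6 (ENSMUSG00000040274) covers chr5:3341485-3531008 on the plus strand. It was at 558, 462, 587 and 574 in NA1 to NA4 and at 254, 256, 430 and 288 in WT1 to WT4. NA2 was the lowest NA library and WT3 the highest WT library, and these came nearest to each other without overlap. The means of 545 ± 57.0 and 307 ± 83.7 (± SD over 4 libraries each) gave a 1.81-fold higher level in NA MPPs, with a 95% interval of 1.43 to 2.28 (limma adjusted p = 0.00225). Cdk6 was called in all 19 alternative settings, with a log2 fold change between 0.76 and 1.03.

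The ratio of Cdk6 to Cdk4 was tested as well. On the log2 scale it was -1.31, -1.35, -1.14 and -1.09 in NA1 to NA4 and -2.56, -2.68, -2.16 and -2.49 in WT1 to WT4. Every NA library was above every WT library for Cdk6 and below for Cdk4, so this ratio had to separate the groups. Its p-value was therefore fixed by the results of the single genes and adds no support to them. The groups differed by 1.25 without overlap (exact two-sided permutation p = 0.0286, the smallest that 70 assignments can give; adjusted p = 0.0381 over the 4 ratios tested). Cdk4 and Cdk6 counts summed to 1817 ± 132 in NA MPPs and 1983 ± 258 in WT MPPs, ranges that overlapped, while Cdk6 made up 30.0% ± 1.85 of that sum in NA and 15.3% ± 2.09 in WT MPPs (± SD over 4 libraries each). Per kilobase of transcript the Cdk6 share was 7.09% ± 0.581 against 3.12% ± 0.494 (± SD over 4 libraries each), because the Cdk6 transcript is 11525 bases long and that of Cdk4 2053 bases. Cdk4 remained the larger of both in every library on either scale. Within the groups the kinases did not move against each other: their deviations from the group means on the log2 scale had a Pearson r of 0.842 over the 8 libraries.

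Cdk2 (ENSMUSG00000025358), the kinase that works with cyclins E and A, had the largest change among the 9 genes. It lies at chr10:128697939-128705031 on the minus strand, 1630018 bases from Cdk4. Its counts were 457, 371, 286 and 438 in NA1 to NA4 and 148, 87.2, 134 and 128 in WT1 to WT4. The lowest NA library, NA3, was still well above the highest WT library, WT1. The means of 388 ± 77.4 and 124 ± 26.2 (± SD over 4 libraries each) correspond to a 3.11-fold higher level in NA MPPs with a 95% interval of 2.36 to 4.10 (limma adjusted p = 5.7e-05), and 1.45% of the tested genes had a higher log2 fold change. Without the fourth libraries the log2 fold change was 1.59 (limma adjusted p = 0.00182). Against Cdk4 the log2 ratio rose by 2.03 (exact two-sided permutation p = 0.0286, adjusted p = 0.0381), and Cdk2 made up 17.6% ± 2.94 of the counts of the 3 kinases in NA libraries and 5.95% ± 1.44 in WT libraries (± SD over 4 libraries each). As Cdk2 and Cdk4 each separated the groups in opposite directions, the p-value of this ratio was also fixed by the single genes.

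Cdk2 and Cdk4 thus lie on the same chromosome and moved in opposite directions, and the bases before their starts are shown to let both be read side by side. RefSeq windows of 250 bases before the start were found for 5 of the 9 genes: Cdk2, Cdk4, Cdk6, Ccnd3, which has 2 starts, and Ccne1. Ccnd1, Ccnd2, Ccne2 and Ccna2 had no match. The sequences are from RefSeq on GRCm38.p6, 5′ to 3′ on the strand of the gene. For Cdk4 at chr10:127063285-127063533 on the plus strand, capitals mark CACGTG, the E-box that MYC and its partner MAX are known to bind. For Cdk2 at chr10:128705052-128705171 on the minus strand, the nearest bases to the start, capitals mark GGGCGG or its reverse complement CCGCCC, the GC box known to bind Sp1, and CCAAT, known to bind NF-Y.
Cdk4: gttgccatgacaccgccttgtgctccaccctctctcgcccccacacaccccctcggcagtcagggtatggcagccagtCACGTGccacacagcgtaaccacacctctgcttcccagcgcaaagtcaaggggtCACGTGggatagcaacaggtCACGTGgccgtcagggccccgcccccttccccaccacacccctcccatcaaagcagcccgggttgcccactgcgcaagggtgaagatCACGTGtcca
Cdk2: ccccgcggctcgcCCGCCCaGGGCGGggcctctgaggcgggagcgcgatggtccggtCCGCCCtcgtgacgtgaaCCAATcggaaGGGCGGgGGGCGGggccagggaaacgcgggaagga

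The Cdk4 window held 4 copies of CACGTG, between 172 and 6 bases before the start. Of 32851 RefSeq promoter windows of this length searched on both strands, 6.02% held CACGTG at least once and 7, or 0.0213%, held it at least 4 times. Cdk6 held it once, and the windows of Cdk2, Ccnd3 and Ccne1 did not hold these letters. The Cdk2 window had 5 GC boxes, Ccne1 had 4, the starts of Ccnd3 had 2 and 1, Cdk4 had 1, which is not in capitals, and Cdk6 had no match. At least 1 was in 32.7% of all windows and at least 4 in 4.09%. CCAAT was found in the windows of Cdk2 and of 1 start of Ccnd3, and in 33.8% of all windows. The E2F letters TTTGGCGC, TTTCGCGC or TTTCCCGC, searched on both strands, occurred in 1.53% of windows and, among the windows of these genes, in that of Cdk2. That match lay from 140 to 133 bases before the start, outside the 120 bases of Cdk2 shown. The Hox and Pbx letters TGATTNAT were in 2.82% of windows and in none of the windows of these genes. These matches are descriptions of letters and not of binding.

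The D cyclins, which carry mitogen signals to Cdk4 and Cdk6, also split. Ccnd2 (ENSMUSG00000000184, chr6:127125162-127152193, minus strand) was at 1939.8, 2250.4, 2142 and 2035 in NA1 to NA4 and at 1525, 1358, 1612 and 1364 in WT1 to WT4. All NA libraries were higher than all WT libraries, and the spread within each group was small. The means of 2092 ± 134 and 1465 ± 125 (± SD over 4 libraries each) gave a 1.43-fold higher level, or 0.52 on the log2 scale (standard error 0.084, limma adjusted p = 0.000974). Ccnd2 was called in all 19 alternative settings, with a log2 fold change from 0.45 to 0.56.

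Ccnd3 (ENSMUSG00000034165, chr17:47505051-47599691, plus strand) was at 475, 288, 395 and 356 in NA1 to NA4 and at 471, 537, 523 and 471 in WT1 to WT4. NA1 lay among the WT libraries and the other 3 NA libraries lay below them. The means were 378 ± 78.3 and 500 ± 34.4 (± SD over 4 libraries each), a difference of -0.42 on the log2 scale that only just passed the threshold (limma adjusted p = 0.0465). The call was kept in 6 of 19 alternative settings, with adjusted p-values from 0.0109 without NA1 to 0.191 without the fourth libraries. It was lost when any of the other 7 libraries was left out (adjusted p from 0.0513 to 0.127) and with a GC trend removed (adjusted p = 0.118, log2 fold change -0.28). A processed pseudogene, Ccnd3-ps, matched the Ccnd3 transcript at 96.3% over 881 bases and was at 0 in all libraries.

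Ccnd1 (ENSMUSG00000070348, chr7:144929931-144939925, minus strand) varied most between libraries of a group among the D cyclins, at 119, 42.3, 141 and 82.7 in NA1 to NA4 and 75.5, 71.3, 42.1 and 51.5 in WT1 to WT4. NA2 lay with the lowest WT library and the other 3 NA libraries lay above all WT libraries. The log2 fold change of 0.57 had a 95% interval of -0.14 to 1.29 (limma adjusted p = 0.247), which includes both no change and a change above 1 on the log2 scale. It was called higher in 1 of 19 alternative settings, without NA2 (log2 fold change 0.92, adjusted p = 0.0395).

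As a family, the D cyclin counts summed to 2566 ± 86.7 in NA libraries and 2025 ± 126 in WT libraries (± SD over 4 libraries each). The Ccnd2 share of that sum was 76.6% to 87.2% in NA and 69.1% to 74.1% in WT libraries, and the Ccnd3 share was 11.1% to 18.8% and 22.7% to 27.3%. The log2 ratio of Ccnd3 to Ccnd2 was 0.94 lower in NA MPPs, with no overlap between -2.96 to -2.03 in NA and -1.69 to -1.34 in WT libraries (exact two-sided permutation p = 0.0286, adjusted p = 0.0381). The lowest Ccnd2 value in NA libraries, 1939.8, exceeded the highest in WT libraries, 1612. For Ccnd3 the highest NA value, 475, was close to the lowest WT value, 471. These ranges forced the ratio to separate the groups, so its p-value was also fixed by the single genes and adds no support to them. The ratio of Ccnd1 to Ccnd2 differed by 0.06 with overlapping groups (exact two-sided permutation p = 0.914, adjusted p = 0.914). Per kilobase of transcript Ccnd3 was a larger share of D cyclin counts, at 48.9% ± 2.53 in WT and 33.3% ± 5.26 in NA MPPs (± SD over 4 libraries each).

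**Figure D3:**
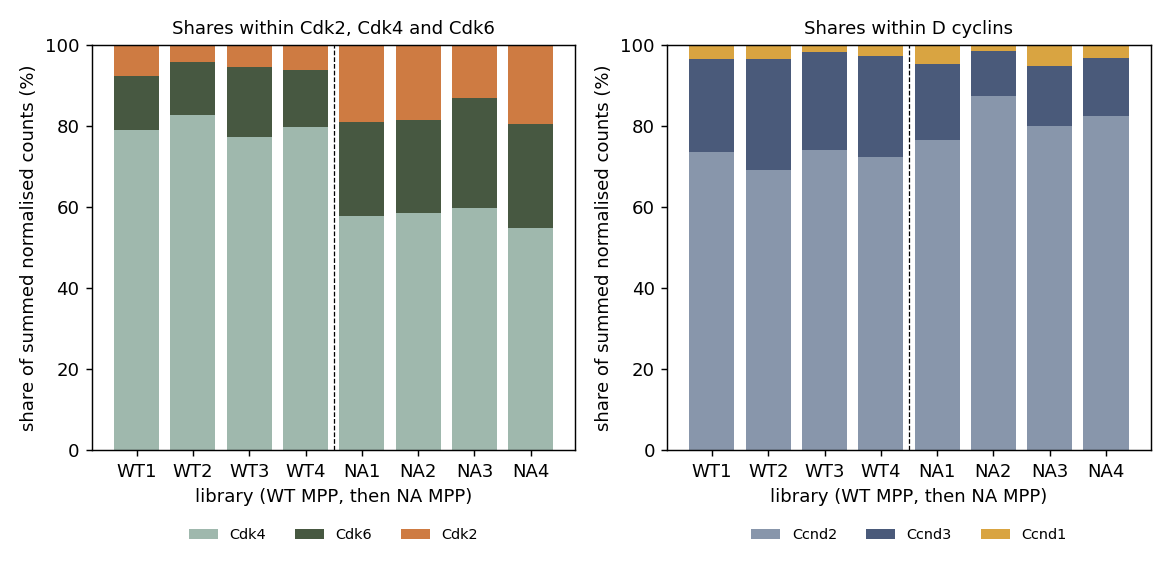
Share of each gene (%) in the summed normalised counts of the 3 kinases (left) and of the 3 D cyclins (right) in each library, WT MPP before the dashed line and NA MPP after it. Cdk2 and Cdk6 fill more of the kinase bars and Ccnd3 less of the cyclin bars in all 4 NA libraries than in any WT library.

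The E cyclins, the partners of Cdk2 at the entry to S phase, had low counts in both groups. Ccne1 (ENSMUSG00000002068, chr7:38097984-38107534, minus strand) was at 14.0, 15.0, 10.2 and 9.45 in NA1 to NA4 and 11.5, 23.8, 13.7 and 12.4 in WT1 to WT4. Ccne2 (ENSMUSG00000028212, chr4:11191351-11204779, plus strand) was at 15.9, 21.6, 11.1 and 16.5 in NA1 to NA4 and 27.5, 15.9, 30.7 and 19.5 in WT1 to WT4. Both groups overlapped for each gene, with the highest Ccne1 value in WT2 and the highest Ccne2 value in WT3. The log2 fold change was -0.28 for Ccne1 (95% interval -1.19 to 0.63, limma adjusted p = 0.681). For Ccne2 it was -0.49 (95% interval -1.30 to 0.32, limma adjusted p = 0.394). At these counts the intervals of both genes hold no change as well as a fall as large as that of Cdk4.

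Ccna2 (ENSMUSG00000027715, chr3:36564865-36572150, minus strand), the S phase cyclin that binds Cdk2, was at 286, 224, 167 and 237 in NA1 to NA4 and 131, 117, 163 and 122 in WT1 to WT4. The groups did not overlap, but NA3 exceeded WT3 by only a few counts. The means of 228 ± 48.8 and 133 ± 20.7 (± SD over 4 libraries each) gave a 1.69-fold higher level in NA MPPs, with a 95% interval of 1.30 to 2.20 (limma adjusted p = 0.0095). It was called in 18 of 19 alternative settings and lost without the fourth libraries (log2 fold change 0.70, limma adjusted p = 0.110). Among the NA libraries Ccna2 and Cdk2 had the same order, with NA1 highest and NA3 lowest, and over the 8 libraries their deviations from the group means had a Pearson r of 0.767. This was not particular to that pair, as r was 0.720 for Cdk2 with Ccne2 and 0.716 for Ccnd1 with Ccnd3. Ccna2 shares 510 exon bases with the gene Exosc9 on the opposite strand, and strand use in counting was not stated. Exosc9 was at 276, 185, 138 and 208 in NA1 to NA4, again with NA1 highest and NA3 lowest, and at 149 to 171 in WT libraries. Its log2 fold change was 0.28 and was not called (limma adjusted p = 0.321).

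Other genes of the list also share exon bases with a gene on the opposite strand. Cdk4 shares 641 bases with Tspan31 (248 ± 50.4 in NA and 229 ± 15.3 in WT MPPs), Ccnd3 shares 361 with Bysl (318 ± 42.2 and 406 ± 72.9), Ccnd1 shares 1100 with LTO1 (177 ± 13.5 and 204 ± 14.3) and Ccne2 shares 609 with Ints8 (208 ± 54.4 and 154 ± 24.9; SD, n = 4 each). Cdk2 shares 34 bases with Pmel, which was at 12.7 ± 7.94 and 7.75 ± 2.06 counts. Tspan31, Bysl, LTO1 and Ints8 were not called, with Bysl nearest to the threshold (limma adjusted p = 0.0965) and lower in NA MPPs, as Ccnd3 was. Cdk6 and Ccnd2 overlap antisense genes that had no row, and the Cdk6 transcript matched the pseudogene Gm16505, also without a row, at 96.1% over 233 bases. The part of these overlaps in the counts was not tested.

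To order all 9 genes by level, counts were divided by the length of the longest coding transcript, which assumes even coverage along it. The shares and sums above rest on counts that were not divided, except where a kilobase is named. Per kilobase, Cdk4 was highest in both groups, at 620 ± 44.3 in NA and 816 ± 86.6 in WT MPPs. In NA MPPs Ccnd2 followed at 330 ± 21.2, then Ccnd3 at 179 ± 37.1 and Cdk2 at 161 ± 32.2, whose ranges overlapped, then Ccna2 at 77.1 ± 16.4, Cdk6 at 47.3 ± 4.95 and Ccnd1 at 25.7 ± 11.6. In WT MPPs Ccnd3 at 237 ± 16.3 and Ccnd2 at 231 ± 19.8 overlapped, as did Cdk2 at 51.7 ± 10.9 and Ccna2 at 44.9 ± 6.99, followed by Cdk6 at 26.6 ± 7.26, whose range reached into that of Cdk2, and Ccnd1 at 16.1 ± 4.25. The E cyclins were lowest and overlapped each other, at 6.08 ± 1.39 and 5.41 ± 1.43 in NA and 7.68 ± 2.84 and 7.79 ± 2.29 in WT MPPs for Ccne1 and Ccne2 (all SD, n = 4). In WT MPPs the lowest Ccnd1 library, at 11.3, lay within the range of Ccne1, which reached 11.9. With the union of all exons as length, Cdk4 and Ccnd2 had ranks 1 and 2 in both groups. In NA MPPs Cdk2 then came to rank 3 at 62.4 ± 12.4, Ccna2 to rank 4 at 56.0 ± 11.9 and Ccnd3 to rank 5 at 43.1 ± 8.93, and in WT MPPs Cdk2 fell from rank 4 to rank 6 at 20.01 ± 4.22, next to Cdk6 at 21.9 ± 5.98.

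**Figure D4:**
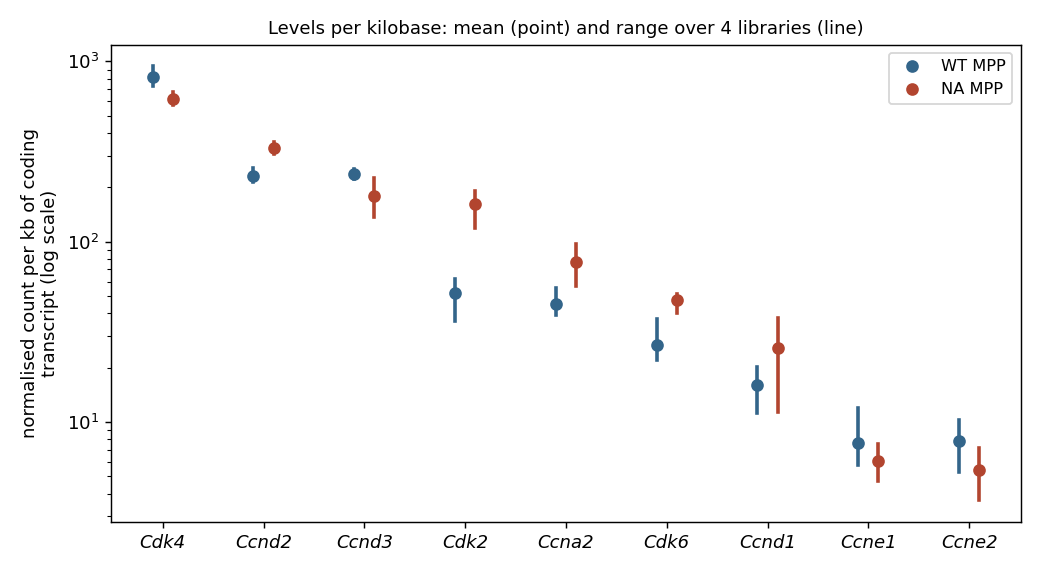
Normalised count per kilobase of the longest coding transcript (log axis) for the 9 genes, in order of their mean in NA MPPs, with points for the means and lines for the range over 4 libraries. Cdk4 is the highest in both groups at 620 and 816, and the E cyclins the lowest at 5.41 to 7.79.

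The GC content of the transcripts differed between the genes called higher and lower. The 4 genes called higher had 45.1% (Cdk6), 46.1% (Ccna2), 47.1% (Ccnd2) and 48.8% (Cdk2) GC, and those called lower had 53.3% (Cdk4) and 56.7% (Ccnd3). The genes that did not pass the test did not follow this order, as Ccne2 had 36.3% GC with a log2 fold change of -0.49, Ccnd1 50.9% with 0.57 and Ccne1 52.7% with -0.28. Across the table the median GC content was 46.0% for the 1152 genes called higher, 52.7% for the 901 called lower and 49.4% for all tested. With a GC trend removed from each library, Cdk2, Cdk6, Ccnd2 and Ccna2 had log2 fold changes of 1.62, 0.76, 0.46 and 0.69 and Cdk4 one of -0.30, all still called (limma adjusted p from 8.08e-05 to 0.0231), and Ccnd3 was not.

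The genes most like each of the called genes across the libraries were listed as a description only, since the groups themselves set much of such a likeness. By Pearson r on the log2 scale over the 8 libraries they were Ube2g1 (0.996), 5430403G16Rik and Miga1 for Cdk2, Jpt2 (0.990), Chic2 and Cd81 for Cdk6, Ywhag (0.981), Procr and Nr2c2 for Ccnd2, and Kdelr2 (0.980), Mtmr2 and Birc6 for Ccna2. For the genes called lower they were Emc10 (0.978), Naip6 and Spag1 for Cdk4, and Tcta (0.993), Acrbp and Kat2a for Ccnd3.

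The genes that act on these complexes are given as counts beside the 17.9% of all tested genes called. Among CDK inhibitors and pocket proteins 1 of 7 tested genes was called: Cdkn1b, which encodes the inhibitor p27 of Cdk2 complexes, was at 410, 242, 253 and 261 in NA1 to NA4 and 129 to 199 in WT libraries. The gene rose by 0.87 on the log2 scale (limma adjusted p = 0.00597), which stood without the fourth libraries (adjusted p = 0.0411). All NA libraries were above all WT libraries, as for Cdk2. The median log2 fold change of this list was 0.11, against -0.01 for all tested genes. Cdkn2a and Cdkn2b were too low to test, and Cdkn2d had no row.

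Among E2F and DP factors, some of which the retinoblastoma protein holds in check, 3 of 8 tested genes were called. E2f3, an activator, rose by 0.68 on the log2 scale (211 ± 33.3 against 130 ± 11.3; limma adjusted p = 0.00801) and the DP partner Tfdp2 by 0.59 (353 ± 18.3 against 237 ± 41.6; adjusted p = 0.00741), while E2f4, known mainly as a repressor, fell by 0.45 (152 ± 19.8 against 207 ± 23.2; adjusted p = 0.0497; SD, n = 4 each). None of the 3 was called without the fourth libraries (adjusted p from 0.0929 to 0.247), and E2f4 was called in 5 of 19 alternative settings, against 18 of 19 for E2f3 and for Tfdp2. The list median was 0.37. At an unadjusted limma p below 0.05, 3 genes of the list were higher and 2 lower, against 16.9% and 15.6% of all tested genes. The larger fall was that of E2f1, by 0.95 (21.3 ± 4.93 against 43.4 ± 15.1, SD, n = 4 each), which was not called (limma adjusted p = 0.0676). E2f1 was named after its values were seen.

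Among genes of cyclin and inhibitor turnover 4 of 13 were called. Skp1a, a core subunit of SCF ubiquitin ligases, was at 467 to 623 in NA and 156 to 275 in WT libraries, and rose by 1.26 on the log2 scale (limma adjusted p = 0.000148). Fbxw7, the SCF subunit that recognises cyclin E, rose by 0.54 (limma adjusted p = 0.0252), and Cks1b, which helps SCF bind p27, by 0.47 (limma adjusted p = 0.0314). Ddb1, of the CUL4 ligase, fell by 0.55 (limma adjusted p = 0.00373). Skp1a and Ddb1 stayed called without the fourth libraries and Fbxw7 and Cks1b did not (adjusted p = 0.139 and 0.110). Of 19 alternative settings, Fbxw7 was called in 14 and Cks1b in 9.

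Replication genes were called in both directions, while the G2 and M genes and the enzymes that act on CDKs had no call. Of 18 replication genes 3 were called, with a list median of 0.06. Rrm2, a subunit of ribonucleotide reductase, was at 29.9 to 42.5 in NA and 7.93 to 11.4 in WT libraries (log2 fold change 1.65, limma adjusted p = 0.00566), and Slbp, which binds histone messenger RNA in S phase, rose by 0.46 (adjusted p = 0.0173). Mcm7, of the replicative helicase, fell by 0.62, from 490 ± 48.4 to 319 ± 12.0 (SD, n = 4 each; adjusted p = 0.00143), and was alone among the 3 in being called without the fourth libraries (adjusted p = 0.0416). Of the 4 tested G2 and M cyclins and Cdk1, limma called 0, and 0 had an unadjusted p below 0.05. Cdk1, the mitotic kinase, was at 51.7 to 101.8 in NA and 36.2 to 68.4 in WT libraries, and Ccnb1, its cyclin partner, at 59.1 to 116.9 and 57.8 to 115.4. Of 7 tested CDK activating and inactivating enzymes limma also called 0, with 2 higher at an unadjusted p below 0.05, where 16.9% of all tested genes were. These were Cdc25a (log2 fold change 0.47, limma adjusted p = 0.0857) and Wee1 (0.70, adjusted p = 0.0983), named with Cdk1 and Ccnb1 after their values were seen.

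**Figure D5:**
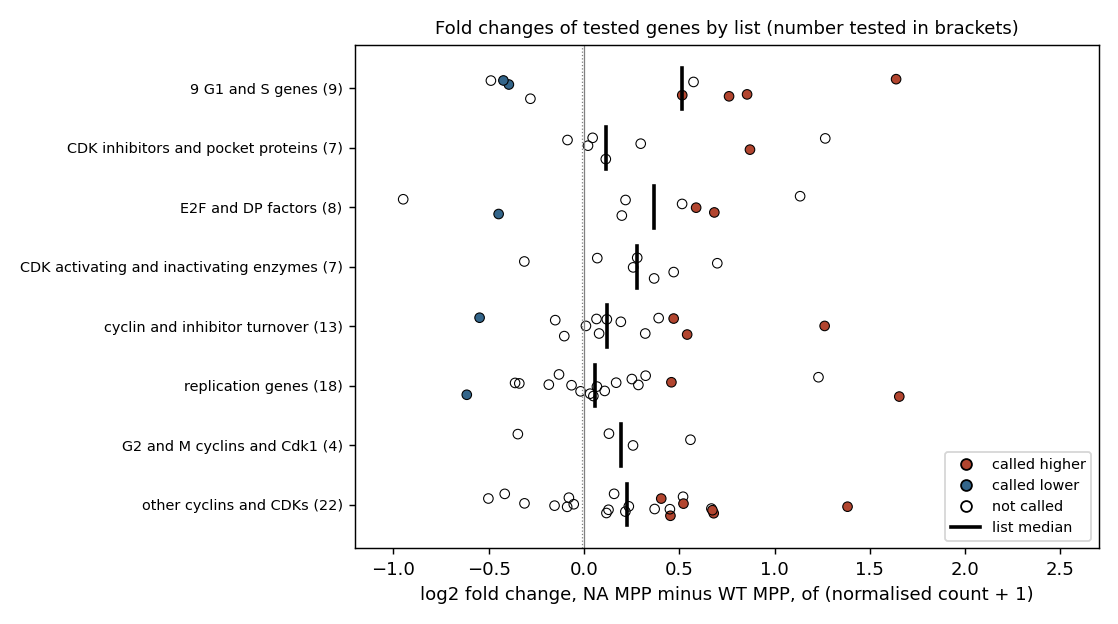
Log2 fold changes, NA MPP minus WT MPP, of the tested genes of each list, with filled points for calls at an adjusted p below 0.05, open points for genes not called, bars for list medians and a dotted line for the median of all tested genes. The 9 G1 and S genes have a median of 0.52 with calls on both sides of 0, and the 4 G2 and M genes have no call.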

How the data were processed

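RNA of 8 MPP libraries of 1000 cells (4 NA, 4 WT, grouped by sample title) was sequenced after amplification of cDNA. The authors aligned and quantified reads with RSEM and normalised them with DESeq2, on mm10 per the submitters' processing notes. Versions, annotation and strand use were not given in the sources used here. The deposited values are a normalised signal, since from 98.3% to 98.7% of the values between 0.5 and 100 in a library were multiples of 1 step within 0.01 of it, but reads below 1 remained, so count models were not run. No other column was present.

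The limma package (3.58.1, R 4.3.3) was applied to log2(normalised count + 1), with a mean-variance trend, no covariates and genes of at least 10 in at least 4 libraries. P-values were adjusted over all genes tested by the method of Benjamini and Hochberg, with a threshold of 0.05. The added 1 shrinks changes of low genes. The 4 ratios were tested by exact two-sided permutation (SciPy 1.17.1) over 70 assignments and adjusted over the 4. The scripts were tested on simulated data. Coordinates and lengths came from GENCODE M21 on GRCm38, copies from blastn 2.17.0 (at least 95% over 200 bases) and promoters from RefSeq. Amplified reads without molecular identifiers are not independent molecules, so depth speaks of counting error only.

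The 9 genes, the 7 pathway lists, the markers and the tests were chosen with earlier results of these data known. From each list, the text names every called gene, or the 5 largest changes where more than 5 were called, and for each called cyclin or kinase the 3 genes with the highest Pearson r. Alternatives changed the pseudocount, filter, variance trend, scaling, depth class, GC trend, replicate block and libraries included.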

Additional observations from a re-analysis of the deposited data

Results flagged for a closer look

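NA4 had an estimated 3887847 reads, where the other 3 NA libraries had 4909391 to 4916987, and its gap was large for a group of 4. It was 1 flag among 28 groups of values examined for a sample far from the others, where chance gives about 1.4. No cyclin or kinase value in either group was far from the others by the same criterion. With depth class as a covariate Cdk2, Cdk4, Cdk6, Ccnd2 and Ccna2 stayed called.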

How the results depend on the processing

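No fold change of the 9 genes changed sign in any of 19 alternative settings (18 for the E cyclins). Of the 169 gene and setting pairs, 152 kept their side of the threshold, 16 lost it and 1 gained it. Without the fourth libraries the number called fell from 6 to 3 of the 9 genes, from 2053 to 515 of all genes and from 17 to 6 of the list genes. The number of the 9 called lower, 2, was 1 with no filter, the replicate block, depth class as a covariate or the GC trend removed, and 0 with no variance trend or without the fourth libraries. The last setting has fewer samples, and the cause of these losses was not tested. Leaving out each library in turn gave 1 to 2 called lower, 1106 (without NA4) to 2141 genes in all, with 1294 without WT4, and 11 (without NA4) to 19 list genes. Of list genes named, 256 gene and setting pairs kept their side of the threshold and 47 lost it.

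The ratios of Cdk6 to Cdk4, Cdk2 to Cdk4 and Ccnd3 to Ccnd2 kept their directions, from 1.18 to 1.36, 1.88 to 2.18 and -1.09 to -0.78 when each library was left out, with exact permutation adjusted p-values up to 0.0762. Without the fourth libraries they were 1.20, 1.99 and -0.92, and with the replicate block 1.25, 2.03 and -0.94, with adjusted p-values of 0.133 and 0.167, but neither of these tests can pass the threshold. The ratio of Ccnd1 to Ccnd2 ranged from -0.16 to 0.44 and reversed without NA1 (-0.12), NA3 (-0.16) or WT3 (-0.14).

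Libraries of the same number share only that number: their deviations correlated at 0.0874, 0.0271, 0.0131 and 0.158 for 1 to 4. A fit with the replicate block called 2004 genes and, of the 9, lost Ccnd3 (limma adjusted p = 0.0586). The planned TMM scaling, edgeR and DESeq2 were not run, because some of the values were not whole reads. Upper-quartile scaling, chosen after seeing the data, called 2133 genes, 47.8% of them higher, and total-count scaling 2239. Depth limits the E cyclins most, where 1 read is worth up to 1.18 of 9.45 to 30.7 normalised counts.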

Other observations

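Among cyclins and CDKs outside both the G1 and S genes and the G2 and M list, most were not called, and those called were higher. Of 22 tested, 6 were higher in NA MPPs and 0 lower by limma, against 10.1% and 7.87% of all tested genes. With total-count scaling, with upper-quartile scaling and without NA3, 1 was called lower, Cdk10, named after its values were seen. At an unadjusted p below 0.05, 8 were higher and 1 lower, against 16.9% and 15.6% of all tested genes. The list median was 0.23. Ccng2, an unconventional cyclin associated with cells leaving the cycle, was at 1032, 1007, 1099 and 1114 in NA1 to NA4 and 624, 668, 698 and 673 in WT1 to WT4 (log2 fold change 0.67, limma adjusted p = 0.000114). Cdk14, a kinase with membrane-bound cyclin Y as partner, was at 110 to 170.1 in NA and 29.4 to 76.3 in WT libraries (1.38, adjusted p = 0.00367). Both stayed called without the fourth libraries (adjusted p = 0.00549 and 0.0296). Cdk19, of the Mediator kinase module, rose by 0.52 (adjusted p = 0.00181), Cdk17 by 0.45 (adjusted p = 0.00554) and Ccnt1, the cyclin of the transcription elongation kinase Cdk9, by 0.68 (adjusted p = 0.0383) with overlapping groups. These 3 were not called without the fourth libraries (adjusted p from 0.0522 to 0.144).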
